A study of Rattus norvegicus with 24 samples.

Results

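Heat shock proteins and the DnaJ cochaperones were examined in rat blood. The members were all 71 genes on the array whose name begins with Hsp followed by a family letter or digit (leaving out Hspg, the perlecan name) or with Dnaj: 28 Hsp genes and 43 Dnaj genes, out of 30367 probes that are not controls. Each gene was read from the probe with the brightest rat channel. Their accessions or symbols matched RefSeq for 71 of 71, and 1 name has changed, Hspb11, which is now Ift25. Hspa1a, the classical inducible HSP70 gene, was not among the gene names on the array.

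Male Sprague-Dawley rats, 8 weeks old at the start, were fed for 6 weeks a semi-synthetic diet (G0), or the same diet with oat beta-glucan of high (G1) or low (G2) molecular weight. LPS groups received E. coli lipopolysaccharide at 10 mg per kg into the tail vein, repeatedly at an interval of days, and control (C) groups received saline. There were 6 groups of 4 arrays, C-G0, LPS-G0, C-G1, LPS-G1, C-G2 and LPS-G2, and each array set the blood RNA of a single rat in Cy3 against a pool of RNA from the rats of the experiment in Cy5. The values below are log2 ratios of Cy3 over Cy5, so that 0 is the level of the pool and 1 is a doubling of it, and the precision is limited by the 4 arrays of each group. The dyes are those of the sample labels. The methods give them the other way round. Read so, every sign below would turn, and the channels would be exchanged in every statement on what was above background. The directions that the paper reports go with the labels. It gives Ube2c as lower in LPS-G1 and LPS-G2 than in LPS-G0. It gives Gzma, Gzmb and Gzmk as higher in LPS-G0 than in C-G0. With the dyes of the labels Ube2c differed from LPS-G0 by -2.50 in LPS-G1 and by -1.83 in LPS-G2. These granzyme genes were likewise higher in LPS-G0. The labels were followed because the SD between arrays of a group was larger in Cy3 than in Cy5 for 95.3% of 7086 probes bright in both channels (median 0.38 and 0.26 on the log2 scale), and a pool should vary less than single rats. LPS-G0 replicates 3 and 4 were placed by their titles, although another label field calls them controls, and values without them are given where they matter.

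These proteins keep other proteins folded. HSP70 proteins bind exposed stretches of a client and release them with ATP, J-domain proteins of the DNAJA, DNAJB and DNAJC classes deliver clients and stimulate that ATPase, HSP110 proteins exchange the nucleotide, HSP90 proteins act on partly folded clients such as kinases and receptors, and small HSPs hold unfolded chains without ATP. The endoplasmic reticulum (ER) and the mitochondrion have their own members. Genes of the cytosolic heat shock response carry heat shock elements, which heat shock factor 1 binds, and genes of the unfolded protein response of the ER carry an ER stress response element. In whole blood, fewer cells of a type and less RNA per cell cannot be told apart.

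The promoters of some members hold letters that match the elements of these control systems, and sequences of such promoters are printed here. The members were chosen by heat shock names, so their share of heat shock elements is not independent of that choice. Windows of 250 bases before to 50 bases after the transcription start, from RefSeq (GRCr8), were found for 56 of 71 members. The others were not searched for elements, among them Hspa1b, Hsp90aa1, Hspa12a, Hspb2, Dnaja2 and Dnajb4. A heat shock element of 3 units, the letters GAA and TTC in turn with NN (any pair of bases) between them, starting with either, was held by 5 members (8.93% of 56), against 0.798% of all 33469 promoters in the table. The 5 were Hspa8, Hspd1, Hspe1, Hsph1 and Dnaja1. An ER stress response element, CCAAT and CCACG with 9 bases of any kind between them, on either strand, was held by 3 members, Hspa5, Hsp90b1 and Dnajc3 (5.36%), against 0.0657% of all promoters. A pair of heat shock units, which every element of 3 units also holds, was found in 16 members (28.6%) and in 15.9% of all promoters. In the sequences, 5′ to 3′, capitals mark heat shock units or the ER stress response element. Hspe1 and Hspd1 are transcribed away from each other, their windows share 211 bases, and the capitals of Hspe1 are the same element as that of Hspd1 on the opposite strand.
Hspa8 (chr8:50080264-50080563, + strand): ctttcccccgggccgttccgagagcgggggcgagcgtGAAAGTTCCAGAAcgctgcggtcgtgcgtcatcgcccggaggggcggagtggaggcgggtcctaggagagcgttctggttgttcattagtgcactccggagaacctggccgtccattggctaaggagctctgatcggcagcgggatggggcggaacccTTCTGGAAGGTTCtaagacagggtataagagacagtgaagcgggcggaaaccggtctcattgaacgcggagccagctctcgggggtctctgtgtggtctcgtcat
Hspe1 (chr9:64084077-64084376, + strand): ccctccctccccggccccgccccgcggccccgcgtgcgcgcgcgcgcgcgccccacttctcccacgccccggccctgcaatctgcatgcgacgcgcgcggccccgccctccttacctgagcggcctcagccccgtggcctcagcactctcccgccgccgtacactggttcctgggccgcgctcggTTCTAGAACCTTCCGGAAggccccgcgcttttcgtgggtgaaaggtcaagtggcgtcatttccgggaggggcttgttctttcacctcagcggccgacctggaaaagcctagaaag
Hsph1 (chr12:10427118-10427417, + strand): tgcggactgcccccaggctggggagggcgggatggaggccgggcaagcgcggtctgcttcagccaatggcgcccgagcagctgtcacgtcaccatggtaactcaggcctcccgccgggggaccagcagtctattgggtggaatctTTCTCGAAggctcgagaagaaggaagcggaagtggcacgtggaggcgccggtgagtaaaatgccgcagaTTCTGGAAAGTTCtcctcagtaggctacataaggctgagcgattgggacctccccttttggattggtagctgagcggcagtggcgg
Hspa5 (chr3:38452766-38453065, + strand): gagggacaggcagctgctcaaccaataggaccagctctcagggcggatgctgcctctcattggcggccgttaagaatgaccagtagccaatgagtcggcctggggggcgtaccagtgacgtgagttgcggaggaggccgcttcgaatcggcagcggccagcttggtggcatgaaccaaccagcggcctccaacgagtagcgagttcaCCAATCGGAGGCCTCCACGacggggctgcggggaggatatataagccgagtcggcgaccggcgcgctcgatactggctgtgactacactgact
Hsp90b1 (chr7:23012244-23012543, - strand): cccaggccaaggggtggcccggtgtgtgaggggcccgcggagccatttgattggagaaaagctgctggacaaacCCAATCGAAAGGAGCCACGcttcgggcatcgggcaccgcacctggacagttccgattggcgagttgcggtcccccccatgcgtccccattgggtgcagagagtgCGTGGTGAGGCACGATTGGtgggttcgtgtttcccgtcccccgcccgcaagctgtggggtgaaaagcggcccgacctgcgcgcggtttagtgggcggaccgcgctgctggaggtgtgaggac
Dnajc3 (chr15:102432417-102432716, + strand): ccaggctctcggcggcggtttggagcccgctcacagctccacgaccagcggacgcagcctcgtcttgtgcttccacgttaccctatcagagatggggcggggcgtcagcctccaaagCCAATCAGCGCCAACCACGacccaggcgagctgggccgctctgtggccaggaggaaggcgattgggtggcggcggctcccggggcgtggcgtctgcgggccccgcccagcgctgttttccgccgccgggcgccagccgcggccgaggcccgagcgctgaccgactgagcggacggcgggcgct
A match is a description of letters in the window and says nothing of binding in blood.

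Which members were measurable in blood differed by role. Well above background means that Feature Extraction flagged the rat channel so. In Cy3, 21 of 71 members were well above background on all 24 arrays and 17 on none, and 36 were tested because they were above it on all 4 arrays of at least 1 group (35 of them also within the 16 arrays of the 3 LPS groups and C-G0, where Dnajb11 dropped out). Both HSP90 genes, all 3 ER chaperones (Hspa5, Hsp90b1, Hspa13) and all 3 mitochondrial chaperones (Hspa9, Hspd1, Hspe1) were tested. Of the 5 cytosolic HSP70 genes only the constitutive Hspa8 and the ribosome-associated Hspa14 were, of the 3 HSP110 genes only Hspa4, and of the 7 small HSPs only Hspb1 and Hspb2. Some were tested through a single group: Dnajb11 through C-G1, and Dnajc16 and Hspb1 through LPS-G0, in each case the group where the gene was highest, and in the 16 arrays also Hspa9 through LPS-G0 and Hspa13 through LPS-G1. A gene that enters in this way was partly chosen for its difference. Any contrast that holds its entry group, also the pooled LPS contrast and the interactions, therefore carries no independent weight for it. This holds for Dnajc16 and Hspb1 with LPS-G0 and for Dnajb11 with C-G1. Within the 16 arrays it also holds for Hspa9 with LPS-G0 and for Hspa13 with LPS-G1. Among J proteins 3 of 4 DNAJA, 6 of 12 DNAJB and 12 of 27 DNAJC genes were tested.

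**Figure D1:**
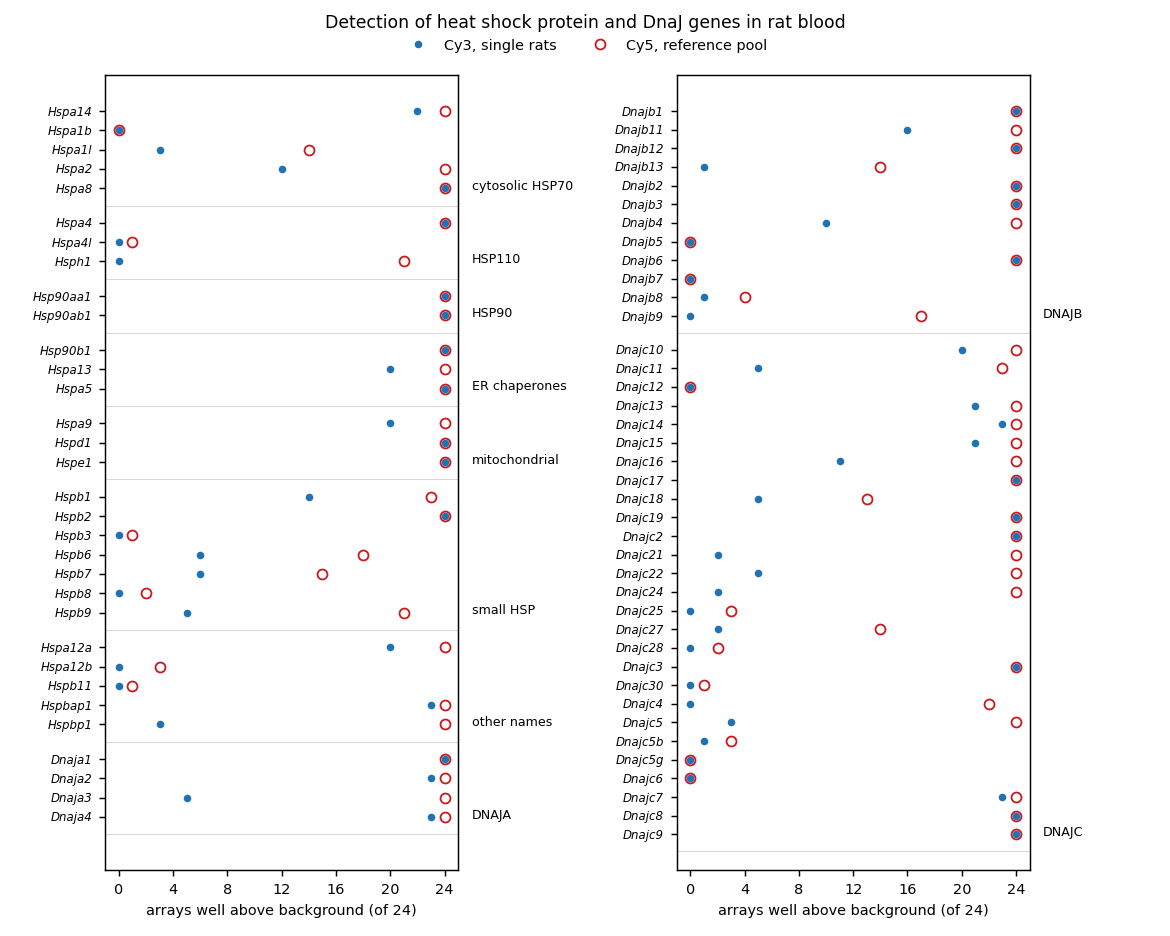
Number of the 24 arrays on which each of the 71 members was well above background, in Cy3 (single rats, filled blue) and Cy5 (reference pool, open red), grouped by role. HSP90, Hspa5, Hsp90b1, Hspd1 and Hspe1 were above it on all 24 arrays in both channels, and Hspa1b, Dnajb5, Dnajb7, Dnajc12, Dnajc5g and Dnajc6 on 0 in both.

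Several genes that heat or ER stress induces elsewhere were not measurable in the channel taken as that of the rats. Hspa1b, the inducible HSP70 gene on the array, was well above background on 0 of 24 arrays in either channel. Hsph1, an inducible HSP110, and Dnajb9, an ER J protein of the unfolded protein response, were above it on 0 of 24 arrays in Cy3, while the pool in Cy5 was above it on 21 and 17 arrays. By the dyes of the methods these would be the rats, and 43 instead of 21 members would be above background on all arrays. The directions that the paper reports for Ube2c and the granzyme genes go with the labels instead, as given above. With the dyes of the labels no level or change of Hspa1b, Hsph1 or Dnajb9 could be read, in either the LPS or the control groups. Hspa4l, Hspa12b, Hspb3, Hspb8 and Hspb11 were on 0 arrays in Cy3 and on 1 to 3 in Cy5. Dim members on some arrays were the testis HSP70 gene Hspa2 (12 arrays), Dnajb4 (10), Hspb6 and Hspb7 (6 each) and the mitochondrial J protein Dnaja3 (5).

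Where a dim member was above background in a single group of a pair, only a rough gap was computed. It used the Cy3 processed signals after quantile scaling of the mean log signal of both dyes between arrays, a scale that is open to dye bias. The mean of all arrays of the brighter group was taken, dim ones included, so the gap is not a strict lower bound. In LPS-G1 vs. LPS-G0 the gap was 1.66-fold for Hspa1l, a testis HSP70 gene (higher in LPS-G0), and 1.39-fold for Dnajc22 (higher in LPS-G1). In the brighter group 1 of 4 and 2 of 4 arrays were above background. Of 6 such members in this comparison, 3 had a gap over 1-fold. In LPS-G0 vs. C-G0 the largest gap was 1.46-fold, for Hspa1l (higher in LPS-G0), again with 1 of 4 arrays above background. There 4 of 10 such members had a gap over 1-fold. Gaps that rest on so few measured arrays have no test.

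Group means of the tested members ran from -1.16 (Hspa12a in C-G1) to 0.63 (Hspb1 in LPS-G0), where 0 is the level of the pool. Dnajb3 was below the pool in all 6 groups (-0.76 to -0.28). Group means spread between 0.21 (Dnajc19, a mitochondrial import J protein) and 1.44 (Hspb1, dim in several groups) from the lowest to the highest of the 6 groups, with a median spread of 0.48, against a median SD within a group of 0.27. The lowest group was C-G0 for 11 of 36 members, and the highest was C-G1 for 13 and LPS-G0 for 12. Shares over all probes were not computed for these counts, so they are not a result about the members. The counts of highest groups include Dnajb11, Dnajc16 and Hspb1, which were tested only through that group. The C-G0 rats were the least alike. The median SD of a member was 0.39 in C-G0, 0.23 in C-G1 and 0.32 in C-G2, and 0.20, 0.27 and 0.22 in LPS-G0, LPS-G1 and LPS-G2. Over all probes the median SD was also largest in C-G0 (0.38), followed by C-G2 (0.31). C-G0 replicate 1 held the lowest value of all 24 arrays for 9 members and the highest for 5, and C-G1 replicate 2 the lowest for 5 and the highest for 6. Both stood apart from their groups, so results that change without C-G0 replicate 1 are given both ways.

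**Figure D2:**
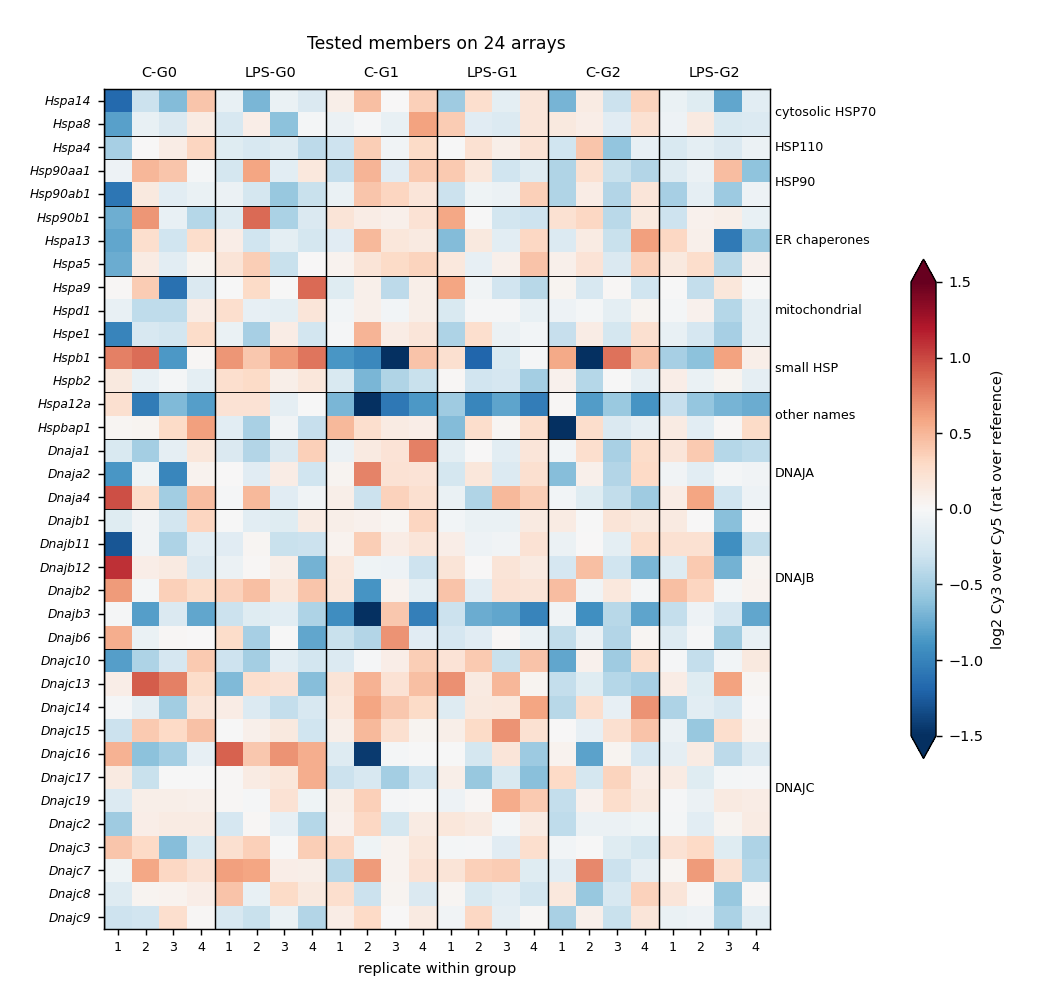
Log2 ratio of the rat channel over the reference channel for the 36 tested members (rows, by role) on the 24 arrays (columns, by group and replicate), where red is above and blue below the pool. C-G0 replicate 1 is low for Hsp90ab1 (-1.08), Hspe1 (-0.99) and Dnajb11 (-1.29), and Hspa12a is high on the 4 LPS-G0 arrays (-0.14 to 0.21) against the LPS-G1 arrays (-1.03 to -0.53).

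LPS-G0 vs. C-G0 asks whether LPS alone changed these transcripts. No member was called, which here means an adjusted p under 0.05 by limma over all probes tested. Of 10315 probes 1 was called (0.00969%), and of 35 members 0. At an unadjusted p under 0.05, 4 members passed (11.4%), against 15.2% of all probes. The methods' test, one-way ANOVA with Tukey's HSD, called 0 members after Benjamini-Hochberg adjustment and 1, Dnajc16, before it (5.35% of all probes). Over the 35 members the median log2 fold change was 0.04, and 20 were higher and 15 lower in LPS-G0, against a median of 0.03 over all probes.

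The constitutive cytosolic chaperones gave small differences with wide intervals. Hspa8 was at -0.81, -0.11, -0.22 and 0.12 on the C-G0 arrays and at -0.24, 0.10, -0.62 and -0.03 on the LPS-G0 arrays. The ranges overlapped, and the log2 fold change was 0.06 ± 0.21 (SE), with a 95% interval from -0.38 to 0.50. Hsp90ab1, the constitutive HSP90, was at -1.08, 0.15, -0.16 and -0.10 in C-G0 and at -0.08, -0.27, -0.57 and -0.33 in LPS-G0, a difference of -0.01 ± 0.23. Replicate 1 was alone at the low end of C-G0 in both genes. Hsp90aa1, the inducible HSP90, was at -0.08, 0.50, 0.41 and -0.04 in C-G0 and at -0.27, 0.59, -0.16 and 0.16 in LPS-G0, with an interval from -0.63 to 0.40. Hspa4 was at -0.49, 0.01, 0.12 and 0.32 in C-G0, and its 4 LPS-G0 values lay close together, at -0.18, -0.24, -0.20 and -0.39. All 4 LPS-G0 values were thus inside the C-G0 range, with a log2 fold change of -0.24 ± 0.15.

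The J proteins that heat induces did not separate the groups either. Dnajb1, a main heat-induced partner of HSP70, was at -0.18, -0.05, -0.28 and 0.32 in C-G0 and at -0.0041, -0.16, -0.18 and 0.13 in LPS-G0. Its log2 fold change was -0.0073, with an interval from -0.38 to 0.36, so that a 1.5-fold difference in either direction lies outside it while smaller ones do not. Dnaja1 was at -0.22, -0.51, -0.13 and 0.17 in C-G0 and at -0.22, -0.44, -0.21 and 0.36 in LPS-G0, and the values of the groups covered much the same range (0.04 ± 0.21). Dnajb6, which suppresses aggregation, was at 0.55, -0.10, 0.02 and 0.01 in C-G0 and at 0.27, -0.49, -0.0053 and -0.78 in LPS-G0 (-0.37 ± 0.21, adjusted p = 0.418).

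The ER chaperones and the mitochondrial chaperones were likewise not called. Hspa5 (BiP), the ER HSP70, was at -0.74, 0.12, -0.16 and 0.05 in C-G0 and at 0.19, 0.36, -0.34 and 0.01 in LPS-G0, with a log2 fold change of 0.24 and an interval from -0.21 to 0.69. Hsp90b1 (GRP94) was at -0.73, 0.66, -0.11 and -0.43 in C-G0 and at -0.20, 0.85, -0.47 and -0.21 in LPS-G0, a wide and overlapping range in both. Dnajc3, which tempers the ER stress kinase PERK, was at 0.42, 0.30, -0.64 and -0.22 in C-G0 and at 0.24, 0.36, -0.0089 and 0.37 in LPS-G0 (0.28 ± 0.22). The 3 members with an ER stress response element, as printed above, thus differed by 0.15 to 0.28, all higher in LPS-G0 and none called (smallest adjusted p = 0.577).

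Among the mitochondrial members, Hspd1 (HSP60) was at -0.11, -0.38, -0.38 and 0.11 in C-G0 and at 0.25, -0.12, -0.14 and 0.18 in LPS-G0 (0.23 ± 0.16). Its partner Hspe1 (HSP10) was at -0.99, -0.25, -0.27 and 0.27 in C-G0 and at -0.10, -0.50, 0.11 and -0.27 in LPS-G0 (0.12 ± 0.23). Hspa9 (mortalin) was at 0.02, 0.38, -1.12 and -0.22 in C-G0 and at -0.0033, 0.29, -0.0008 and 0.85 in LPS-G0 (0.52 ± 0.29, adjusted p = 0.408), and it was tested only through LPS-G0. In each of the 3 the ranges of the groups overlapped. The 4 tested members with a heat shock element of 3 units, Hspa8, Hspd1, Hspe1 and Dnaja1, differed by 0.04 to 0.23.

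The 3 largest differences were in less studied members. Dnajc16, an ER membrane J protein with a thioredoxin-like part, was at 0.52, -0.61, -0.51 and -0.13 in C-G0 and at 0.88, 0.41, 0.67 and 0.54 in LPS-G0. Replicate 1 of C-G0 reached into the LPS-G0 range, and the difference was 0.81 ± 0.23 (adjusted p = 0.218), with 2 of 4 C-G0 arrays above background. Dnajc13, an endosomal J protein, was at a mean of 0.51 in C-G0 and -0.21 in LPS-G0 (-0.72 ± 0.26, adjusted p = 0.239). Hspa12a, a distant HSP70 relative, was at 0.24, -1.05, -0.66 and -0.83 in C-G0 and at 0.21, 0.21, -0.14 and -0.0069 in LPS-G0 (0.65 ± 0.22, adjusted p = 0.224), again with C-G0 replicate 1 among the LPS-G0 values. The 1 member whose groups did not overlap was Hspbap1, the Hspb1-associated protein (-0.51 ± 0.20, adjusted p = 0.262), 2.86% of the members against 5.04% of all probes.

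Markers of cytotoxic and NK cells moved in this comparison: 7 of 7 tested were higher in LPS-G0 at an unadjusted p under 0.05, by 0.67 to 1.35, and none was called. All 5 tested neutrophil markers were lower (-0.73 to -0.34), and all 6 division markers higher (0.03 to 0.71), also without a call. Their part in the differences of the members was not tested.

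The count depended on C-G0 replicate 1. Without it, 1139 probes (11%) and 3 of 35 members (8.57%) were called, again no more than the share over all probes: Dnajc16 (1.04, adjusted p = 0.00705), Hspa12a (0.92, adjusted p = 0.00663) and Hspa4. With limma's array weights, which count an array that stands apart for less, 3 members were called too, Dnajc16, Hspa12a and Dnajc13, among 1106 of 10315 probes.

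**Figure D3:**
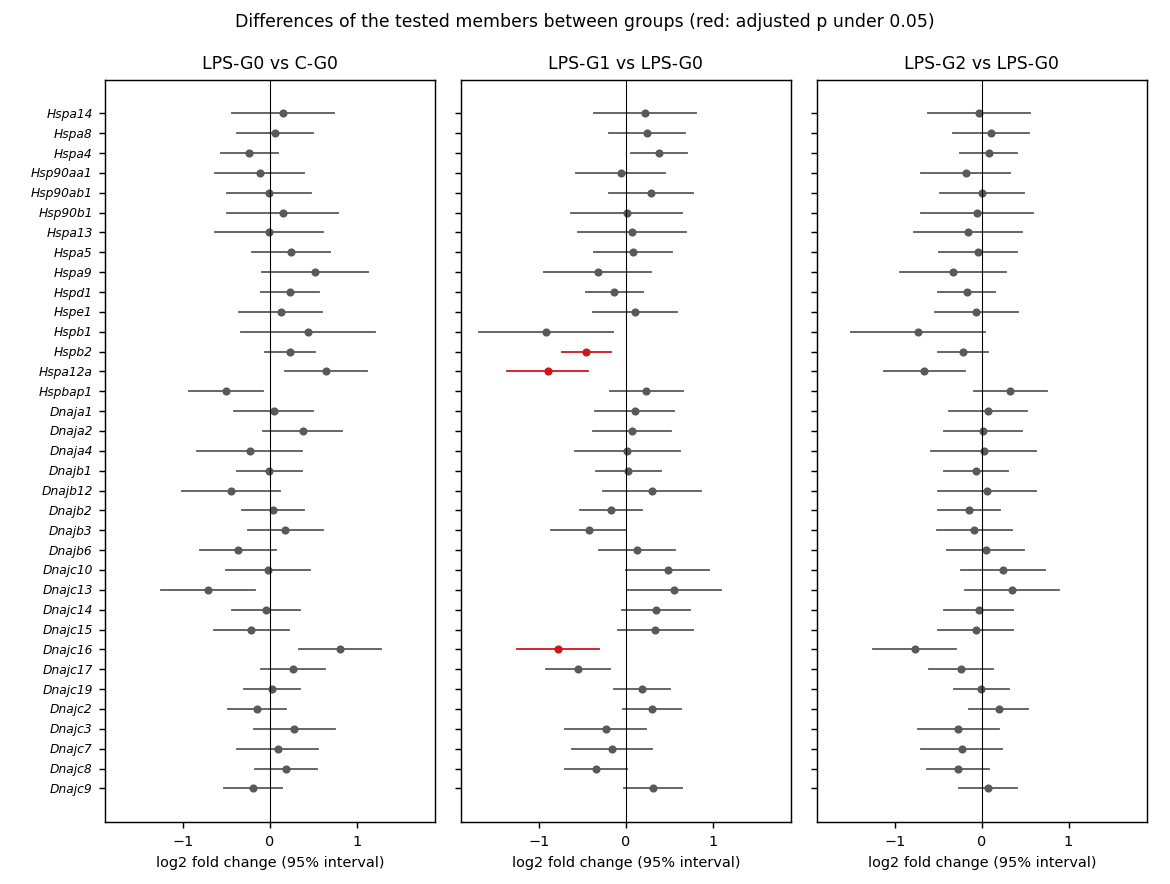
Log2 fold change with its 95% interval (x axis) of the 35 members tested in 16 arrays (y axis, by role) for LPS on the control diet and for each beta-glucan in LPS-challenged rats, with called members in red. The 3 called members, Hspb2, Hspa12a and Dnajc16, are all lower in LPS-G1 than in LPS-G0.

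LPS-G1 vs. LPS-G0 asks what the high-molecular-weight beta-glucan did in LPS-challenged rats. Of 35 members 3 were called (8.57%), all lower in LPS-G1: Hspa12a, Dnajc16 and Hspb2. Of all probes tested 8.93% were called, and 8.39% of all probes were called lower, so the share of members was near that of any probe on the array. The remaining 32 members were not called on their brightest probe. A second, dimmer probe of Dnajc14 was called, higher in LPS-G1 (0.69, adjusted p = 0.0417), while its brightest probe was at 0.35 (adjusted p = 0.236). None of the 3 changed by 2-fold, which 0.989% of all probes did with a call. At an unadjusted p under 0.05, 8 members passed (22.9%, against 26.9% of all probes). The groups did not overlap for 5 members (14.3%), against 21.9% of all probes. The methods' ANOVA with Tukey's HSD called 0 members after adjustment and 4 before it, Dnajc16, Dnajc17, Hspa12a and Hspb2 (11.4%, against 12% of all probes). This comparison and the preceding one share the LPS-G0 arrays, so they are not independent.

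Hspa12a was at 0.21, 0.21, -0.14 and -0.0069 on the LPS-G0 arrays and at -0.53, -0.97, -0.80 and -1.03 on the LPS-G1 arrays. Every LPS-G1 array was below every LPS-G0 array, and the log2 fold change was -0.90 ± 0.22 (1.87-fold lower, adjusted p = 0.029, exact permutation p = 0.0286, the smallest that 4 against 4 arrays allow). The difference within each slide was -0.74, -0.75 and -1.03. With normexp background correction and loess the difference was -0.49 (adjusted p = 0.0466). The group means ran from -1.16 in C-G1 over -0.83 in LPS-G1, -0.59 in LPS-G2, -0.58 in C-G0 and -0.56 in C-G2 to 0.07 in LPS-G0.

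Dnajc16 was at 0.88, 0.41, 0.67 and 0.54 in LPS-G0 and at -0.01, -0.27, 0.18 and -0.54 in LPS-G1. The log2 fold change was -0.78 ± 0.23 (adjusted p = 0.041). The probe exceeded background in 4 of 4 LPS-G0 rats and in 1 of 4 LPS-G1 rats, so the LPS-G1 values are of a dim probe and the gene was tested only because it was high in LPS-G0. With normexp background correction and loess the difference was only -0.26 (adjusted p = 0.124).

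Hspb2, a small HSP best known from muscle, was at 0.25, 0.29, 0.09 and 0.17 in LPS-G0 and at 0.02, -0.29, -0.26 and -0.51 in LPS-G1. All 4 LPS-G1 values were lower, with a log2 fold change of -0.46 ± 0.14 (1.37-fold, adjusted p = 0.0458). Its differences within the slides were -0.25, -0.36 and -0.68. With slide as a block in limma, neither Hspb2 (-0.42, adjusted p = 0.0708) nor Dnajc16 (-0.78, adjusted p = 0.0661) was called.

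**Figure D4:**
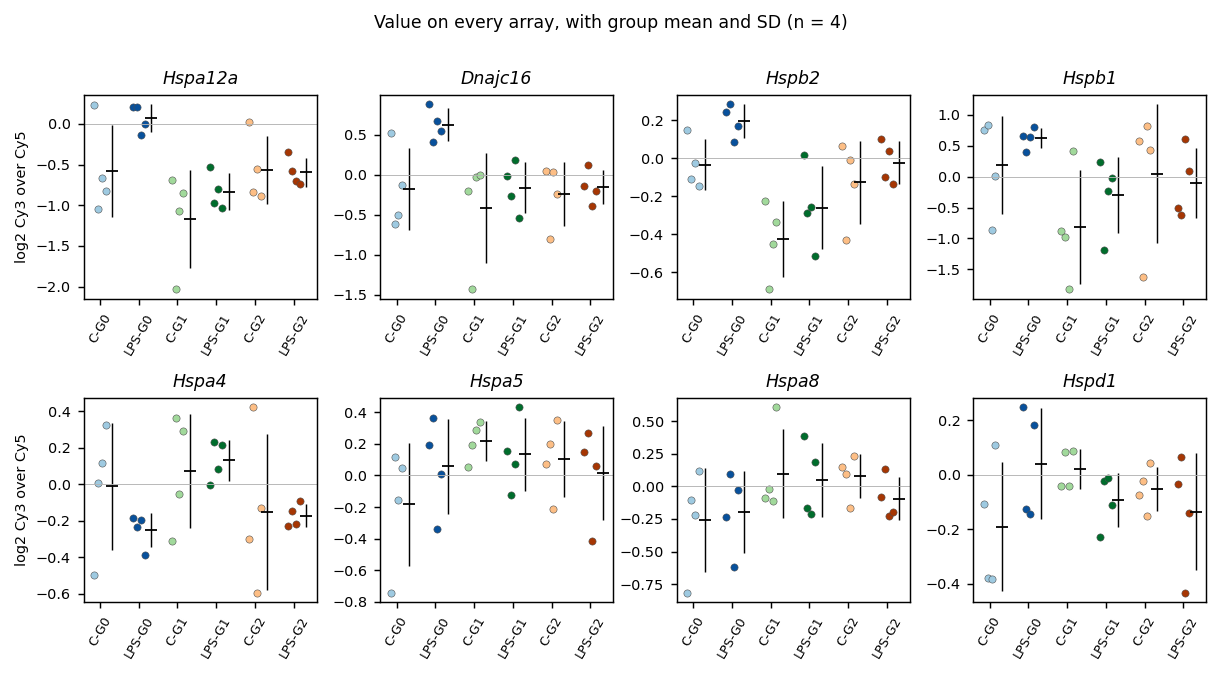
Log2 ratio of 8 members on every array (points) in the 6 groups, with mean and SD of the 4 arrays of a group. Hspa12a, Dnajc16, Hspb2, Hspb1 and Hspd1 have their highest group mean in LPS-G0. Hspa5, Hspa8 and Hspd1 overlap between groups, and the LPS-G0 values of Hspb1 (0.40 to 0.80) lie inside its C-G0 range (-0.87 to 0.84).

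Markers of dividing cells and red cells moved along with these 3 members. Of 6 tested genes of the cell division list, 6 were lower in LPS-G1 than in LPS-G0 and 2 were called, Ube2c (-2.50) and Tpx2 (-1.68), and the mean of the list ran from 0.32 to 0.80 on the LPS-G0 arrays and from -1.20 to -0.06 on the LPS-G1 arrays. Of 11 tested markers of red cell precursors and reticulocytes, 9 were lower and 1 was called, the membrane skeleton gene Epb42 (-0.93), with the list at 0 to 0.15 in LPS-G0 and at -0.54 to 0.0031 in LPS-G1. Within groups too, rats with more of these transcripts tended to have more of these 3 members. Over the deviations of 24 arrays from their group means, Hspa12a correlated with the division list at r = 0.82 (rho = 0.80, permutation within groups, p = 1e-05, the smallest it can give, adjusted p = 0.00024) and with the red cell list at r = 0.76 (rho = 0.70, adjusted p = 0.0264). Dnajc16 and Hspb2 correlated with the division list at r = 0.70 and r = 0.72 (adjusted p = 0.0195 for both by permutation). These are 4 of 24 relations computed for 3 members and 8 lists, adjusted together. No other member or probe was set against the lists, so the relations cannot be called particular to these 3. The deviations share slide and depth, and Dnajc16 was above background on only 11 of 24 arrays.

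Without the 2 arrays farthest from the median of the division list, C-G1 replicate 2 and LPS-G1 replicate 2, r was 0.81 for Hspa12a, 0.63 for Dnajc16 and 0.72 for Hspb2. Within slides 1, 2 and 3, r was 0.91, 0.67 and 0.88 for Hspa12a and 0.88, 0.44 and 0.48 for Hspb2. The red cell list gave r = 0.72 with Dnajc16 and 0.53 with Hspb2 (adjusted p = 0.0717 and 0.098). With platelet markers r was 0.67 for Dnajc16 and 0.65 for Hspa12a (adjusted p = 0.0942 and 0.098), and the lists of neutrophils, monocytes, B cells, T cells and cytotoxic cells gave r from -0.52 to 0.17 with the 3 members (smallest adjusted p = 0.115). None of the tested markers of these 5 lists or of platelets was called in LPS-G1 vs. LPS-G0. The part of the markers in the lower values of LPS-G1 was not tested.

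**Figure D5:**
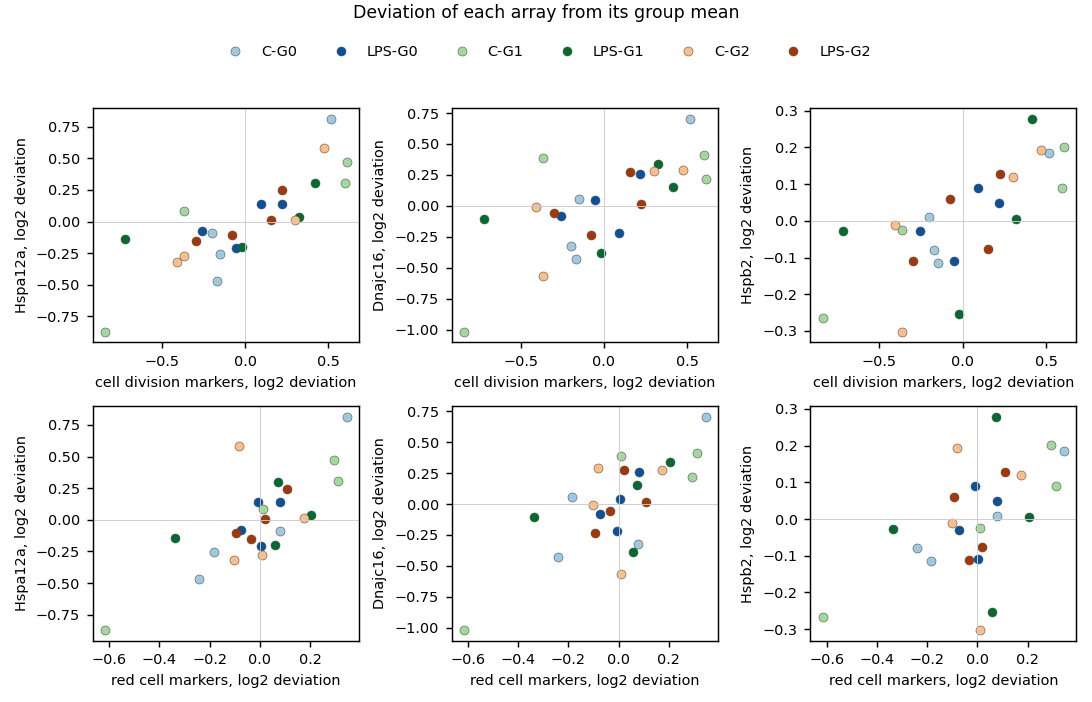
Deviation of each of the 24 arrays from its group mean, for the mean of the cell division markers (top) or red cell markers (bottom) on the x axis and for Hspa12a, Dnajc16 and Hspb2 on the y axis, on the log2 scale. Arrays high in the markers tend to be high in these members, most closely for Hspa12a with the division markers (r = 0.82), and C-G1 replicate 2 is low in every panel.

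The best-known chaperones were not called in LPS-G1 vs. LPS-G0. Hspb1 (HSP27), the small HSP of stressed cells, was at -0.93 ± 0.37 (adjusted p = 0.118), and at -0.31 with normexp and loess. It was at 0.67, 0.40, 0.64 and 0.80 in LPS-G0 and at 0.23, -1.19, -0.23 and -0.01 in LPS-G1, but 2 of the 4 LPS-G1 values were not well above background and the gene was tested only through LPS-G0. Hspa4 was higher in LPS-G1, at -0.0050, 0.23, 0.08 and 0.22 against -0.18, -0.24, -0.20 and -0.39 (0.38 ± 0.15, adjusted p = 0.126), also without overlap. Dnajc17, a nuclear J protein with an RNA-binding motif, was at -0.55 ± 0.17 (adjusted p = 0.0571). Dnajc13 was at 0.55 ± 0.26, with 2 of 4 LPS-G0 arrays above background. Dnajc10, an ER J protein that reduces disulfides, was at 0.48 ± 0.23. The 4 members with a heat shock element of 3 units ran from -0.13 to 0.24 and the 3 with an ER stress response element from -0.23 to 0.08.

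The 3 calls were lost under several settings. With all 24 arrays in the model none of them passed (adjusted p from 0.105 to 0.122), and when both LPS-G0 replicates in doubt were left out none did either, although Hspa12a was then at -1.05. Leaving out LPS-G0 replicate 1, 2 or 4 or LPS-G1 replicate 2, 3 or 4 alone took the count to 0, while leaving out C-G0 replicate 1 raised it to 5 (14.3%, against 18.8% of all probes), adding Hspa4 and Dnajc17.

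LPS-G2 vs. LPS-G0 is the same question for the low-molecular-weight beta-glucan. By limma 0 of 10315 probes and 0 of 35 members were called, with 2 members at an unadjusted p under 0.05 (5.71%, against 8.23% of all probes) and 1 member, Dnajc16, by the methods' test before adjustment (1.56% of all probes). Dnajc16 was at -0.14, 0.12, -0.39 and -0.21 in LPS-G2, where 1 of 4 arrays was above background, with a difference of -0.78 ± 0.23 (adjusted p = 0.597) that was -0.19 with normexp and loess. Hspa12a was at -0.35, -0.58, -0.70 and -0.74, below all 4 LPS-G0 arrays (-0.66 ± 0.22, adjusted p = 0.597), but with Cy3 alone the difference turned to 0.0783. Groups did not overlap for 2 members (5.71%, Hspa12a and Dnajc16), against 10.5% of all probes. Hspb1 differed by -0.73 ± 0.37, with 1 of 4 LPS-G2 arrays above background. All 5 tested neutrophil markers were higher in LPS-G2 (0.38 to 0.92), and all 7 cytotoxic and NK cell markers (-0.74 to -0.14) and all 6 division markers (-1.83 to -0.16) were lower, with none called, and their part was not tested. Both comparisons with a beta-glucan use the same LPS-G0 rats.

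LPS-G1 vs. LPS-G2 set the 2 molecular weights against each other in LPS-challenged rats. By limma 0 probes and 0 members were called, and 0 of 35 members against 6.68% of all probes passed an unadjusted p under 0.05. The largest differences were Dnajc15, a mitochondrial import J protein (0.41, 95% interval -0.03 to 0.84), Dnajc14, an ER membrane J protein (0.39, -0.0053 to 0.78), and Dnajb3 (-0.35, -0.78 to 0.09). Members ran from -0.35 to 0.41, and the intervals leave room for differences in either molecular weight's favour of up to that size and more.

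C-G1 vs. C-G0 and C-G2 vs. C-G0 compare the diets without LPS, over 24 arrays and 10708 probes. In C-G1 vs. C-G0, 3 probes (0.028%) and 0 of 36 members were called by limma, and 9 members (25%) passed an unadjusted p under 0.05, against 27.9% of all probes. Of the 9, 6 were higher in C-G1 (16.7% of the members, against 12.1% of all probes): the cytosolic J protein Dnaja2 (0.77 ± 0.23, adjusted p = 0.106), the ER J protein Dnajb11 (0.67 ± 0.24, and 0.14 with normexp and loess, tested only through C-G1), Hspa14 (0.66 ± 0.27), Hspe1 (0.51 ± 0.22), Hsp90ab1 (0.50 ± 0.23) and Dnajc14 (0.49 ± 0.21). The other 3, Hspa12a (-0.59 ± 0.27), Dnajb2 (-0.51 ± 0.20) and Hspb2 (-0.39 ± 0.14), were lower (8.33%, against 15.8%), and Hspb1, above background on 1 of 4 C-G1 arrays, was at -0.998 ± 0.49 (adjusted p = 0.184). C-G0 replicate 1 was the lowest of the 24 arrays for Dnajb11, Hspe1, Hspa14 and Hsp90ab1. A second, dimmer probe of Dnajc14 went the other way, at -0.16 (unadjusted p = 0.418 by limma). In C-G1 all 6 tested division markers and 9 of 11 red cell markers were lower than in C-G0, and all 7 cytotoxic and NK cell markers higher, with none called; their part was not tested.

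In C-G1 vs. C-G0 the calls turned on C-G0 replicate 4. Without it 3 members were called, Dnaja2 (0.94, adjusted p = 0.0209), Hspa14 (0.94) and Hspe1 (0.70), which is 8.33% of the members against 8.99% of all probes. In C-G2 vs. C-G0, 3 probes and 0 of 36 members were called, with 4 members (11.1%) and 13.3% of all probes at an unadjusted p under 0.05. Dnajc13 was lowest in C-G2 (-0.87 ± 0.23, adjusted p = 0.168), with Hspbap1 (-0.65 ± 0.27) and Dnaja4 (-0.58 ± 0.26), and Dnajb11 was higher (0.50 ± 0.24). Without C-G0 replicate 4, Dnajc13 was called (-0.95, adjusted p = 0.0383), 2.78% of the members against 3.3% of all probes.

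LPS in rats fed beta-glucan was compared with saline on the same diet. In LPS-G1 vs. C-G1, 0 of 36 members were called, against 0.00934% of all probes, and the largest differences were in Hspb1 (0.51 ± 0.49), the ubiquitin-binding J protein Dnajb2 (0.37 ± 0.20) and Hspa12a (0.33 ± 0.27), with 0 members at an unadjusted p under 0.05 against 2.81% of all probes. In LPS-G2 vs. C-G2 they were Dnajc13 (0.50 ± 0.23), the 1 member at an unadjusted p under 0.05 (2.78%, against 1.09%), Hspbap1 (0.48 ± 0.27) and Dnaja4 (0.37 ± 0.26), with 0 probes called and an adjusted p of 0.9999 for each of the 3.

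Over the 3 diets together, LPS vs. C called 2 probes (0.0187%) and 0 of 36 members, and 1 member, Dnajc16, had an unadjusted p under 0.05 (2.78%, against 9.61% of all probes), with a difference of 0.38 ± 0.16 (adjusted p = 0.516). Dnajc16 was tested only through LPS-G0, which is on the LPS side of this contrast. The intervals of LPS vs. C over the 3 diets were the narrowest for the effect of LPS. They placed Hspd1 between -0.16 and 0.18, Hspa8 between -0.30 and 0.19, Hspa5 between -0.21 and 0.26, Dnajb1 between -0.32 and 0.06 and Hsp90aa1 between -0.32 and 0.28 (95% intervals), so a 1.5-fold difference lay outside each of these. Hspb1 (-0.32 to 0.85) was far less certain.

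Whether LPS acted differently under each diet was tested as an interaction. By limma 0 probes and 0 members were called for either diet, with 2 members each at an unadjusted p under 0.05 (5.56%, against 3.01% of all probes for G1 and 5.57% for G2). Dnajc13 was the largest in both, at 1.22 ± 0.32 for G2 (adjusted p = 0.832) and 0.71 ± 0.32 for G1 (adjusted p = 0.999). The others were Hspbap1 (0.98 ± 0.38) and Dnajc16 (-0.72 ± 0.40) for G2 and Dnaja2 (-0.70 ± 0.33) and Dnajb12 (0.65 ± 0.38) for G1. Dnajc16 was tested only through LPS-G0, which is part of each interaction. The interactions for G1 and G2 subtract the same LPS-G0 vs. C-G0 difference, so they are not independent. For Dnajc13 the group mean was 0.51 in C-G0 and -0.21 in LPS-G0. It was 0.35 in C-G1 and 0.34 in LPS-G1, and -0.37 in C-G2 and 0.14 in LPS-G2. The place of Dnajc13 as the largest in both is therefore not separate evidence from each diet.

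Where a gene had several tested probes, they were compared. Over the 24 arrays, probes of a gene correlated at r = 0.88 for Hspe1, 0.82 for Dnajb2, 0.81 for Dnajc17 and 0.48 to 0.97 for the 4 probes of Hspa8, but at 0.36 to 0.70 for the 3 of Hsp90aa1 and at 0.27 for the 2 of Dnajc14. For 7 genes in 11 comparisons, directions differed in 26 cases, and in none of them were both probes past an unadjusted p of 0.05. In C-G1 vs. C-G0 the Hsp90aa1 probes ran from -0.11 to 0.67 and those of Dnajc14 from -0.16 to 0.49, so the values of both genes there depend on the probe. Hspa8 and the HSP90 genes have near-identical processed copies in mammalian genomes, so their values are uncertain to that extent.

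The partners of these chaperones were followed in a list of 66 genes outside the naming rule, of which 65 were on the array and 51 tested in 16 arrays: heat shock factors, cochaperones of HSP90 and HSP70, the TRiC chaperonin and prefoldin, ER folding and unfolded protein response genes and mitochondrial partners. In LPS-G0 vs. C-G0, 0 of 51 were called. In LPS-G1 vs. LPS-G0, 3 were called (against 8.93% of all probes), all lower: Bag4, an HSP70 nucleotide exchange factor (-1.08 ± 0.28, adjusted p = 0.029), Serpinh1, the collagen chaperone of the ER (-0.79 ± 0.18, adjusted p = 0.029), and Manf, an ER stress-induced secreted factor (-0.66 ± 0.19, adjusted p = 0.0378). In that comparison 33 of 51 were higher and 18 lower, with a median of 0.14 against 0.06 over all probes. None was called in LPS-G2 vs. LPS-G0 or in LPS-G1 vs. LPS-G2. Of the 12 tested TRiC and prefoldin genes, which fold actin and tubulin, 0 were called in any comparison, and 5 passed an unadjusted p under 0.05 in C-G1 vs. C-G0, all higher in C-G1, where 12.1% of all probes were higher at that p.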

How the data were processed

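Blood RNA of 24 rats was measured by two-color hybridization (Agilent SurePrint G3, rat). The deposited intensities (processed signals) and their log10 ratios (Cy5 over Cy3) were made by the authors with Agilent Feature Extraction, version 10.10.1.1 per the file headers and 10.7.3.1 per the submitters' processing notes, with background subtraction and Lowess dye normalization. The deposited matrix of the series was identical in all 1511424 ratios. Here the ratio was turned to Cy3 over Cy5 and to log2. Between 679 and 1133 outlier spots per array were left out, and spots of a probe were averaged. No pair of arrays correlated below -0.16 over all probes. In Cy3 an array had 7788 to 15389 probes that Feature Extraction flagged well above background. Probes so flagged on all 4 arrays of at least 1 group were tested, 10315 in 16 arrays and 10708 in 24.

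Tests were made with limma 3.58.1 in R 4.3.3 (files read with data.table, version 1.17.8), two-sided, with Benjamini-Hochberg adjustment over all probes tested, and the fit was tested on simulated data. Single members were also tested over the 70 arrangements of 8 arrays. The 16 arrays of the 3 LPS groups and C-G0 were fitted together for the comparisons among them, and all 24 for the rest. The methods' ANOVA with Tukey's HSD, other corrections and filters, slide or replicate as a term, and leaving out arrays were tried as alternatives. The named genes were the members called, the 3 largest differences of each comparison, and a list of well-known chaperones. Members, lists and tests were chosen with earlier results of these data known. The list of heat shock and J proteins, its role groups and the partner genes therefore give no independent evidence. Arrays were taken as biological replicates, 1 rat each.

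The 3 slides held 8 arrays each and all 6 groups. The 8 marker lists (7 blood cell classes and cell division) were averaged per array over the tested markers. Promoters came from RefSeq (GRCr8). Probe positions in the files are on rn4 and were not used with them.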

Additional observations from a re-analysis of the deposited data

Results flagged for a closer look

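Of 108 group values of 18 named members, 4 held an array far from the other 3 of its group by Dixon's test, and chance alone flags about 1 group in 20. Dnajc16 was at -1.43 on C-G1 replicate 2, with the other C-G1 arrays from -0.20 to -0.0014. Hspb1 was at -1.62 on C-G2 replicate 2, with the others from 0.43 to 0.81. Hspa8 was at 0.61 on C-G1 replicate 4, with the others from -0.11 to -0.02. Dnajb1 was at -0.63 on LPS-G2 replicate 3, with the others from 0.0084 to 0.13.

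A signal in the reference channel, which no comparison uses alone, was found for 3 members that were on 0 of 24 arrays above background in the rat channel. The pool was well above background for Hsph1 on 21 arrays, for Dnajc4, a mitochondrial J protein, on 22 and for Dnajb9 on 17.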

How the results depend on the processing

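The count of called members in LPS-G1 vs. LPS-G0, 3 of 35, was 3 with normexp and loess, 3 with a signal trend, 2 under the stricter filter (22 members tested), 4 with the mean of all probes and 4 with the replicate block. It was 0 without a filter, with Cy3 alone, without both LPS-G0 replicates 3 and 4, with 24 arrays in the model, with the methods' ANOVA after adjustment and at 2-fold. It was 1 with slide as a block (Hspa12a; 3.25% of all probes), 8 with array weights (27.6%) and 8 at an unadjusted p (26.9%), where 8 members are 22.9%. In LPS-G0 vs. C-G0 it was 3 with array weights, 1 by the unadjusted ANOVA and 4 at an unadjusted p. In LPS-G2 vs. LPS-G0 the last 2 gave 1 and 2. In C-G1 vs. C-G0 the replicate block gave 1 (Dnaja2, adjusted p = 0.0433; 5.6% of all probes), and an unadjusted p gave 9. An unadjusted p gave 4 in C-G2 vs. C-G0, 1 in LPS-G2 vs. C-G2, 1 for LPS over 3 diets and 2 for each interaction. Leaving out 1 array gave 0 to 5 members in LPS-G1 vs. LPS-G0 (1 without LPS-G2 replicate 1 or 4), 0 to 3 in LPS-G0 vs. C-G0 (3 only without C-G0 replicate 1), 0 to 3 in C-G1 vs. C-G0 and 0 to 1 in C-G2 vs. C-G0 (both only without C-G0 replicate 4), and 0 to 0 in the other 7. The cause was not tested.

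Arrays with the same replicate number were somewhat more alike than others, and no label says that the number pairs the rats. Replicate 1 was on slide 1 and replicate 4 on slide 3 in every group. Likeness by number therefore cannot be told apart from likeness by slide. Arrays of the same number correlated at a mean of 0.11 across groups and others at -0.04, with the lowest pair at -0.31, and 14 of 24 arrays correlated best with their own number. The replicate block changed no other count of called members by over 1.5 times. Of the named differences, 3 turned in sign: Hspa12a in LPS-G2 vs. LPS-G0 (0.0783) and Dnajb3 in LPS-G1 vs. LPS-G2 (0.18) with Cy3 alone, and Hspa12a in LPS-G1 vs. C-G1 (-0.0031) with array weights. The 35 untested members were too dim in Cy3 to pass the filter.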

Other observations

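Some members moved together from rat to rat, with the arrays of all groups pooled. Single groups were not examined, and nothing was recomputed without C-G0 replicate 1 or C-G1 replicate 2. Over the deviations of 24 arrays from their group means, which share slide and depth, Hspa14 and the mitochondrial Hspe1 correlated at r = 0.93, the ER pair Hspa5 and Dnajb11 at 0.85, Dnajb11 and Hspa13 at 0.81, Hsp90ab1 and Hspa5 at 0.79 and Dnaja2 and Hspa14 at 0.79. A further set held the 3 members called in LPS-G1 vs. LPS-G0, with r from 0.67 to 0.81 among them, and Dnajb2 with Hspa12a at 0.89. Some pairs ran against each other, with Dnaja2 and Hspa12a at -0.76, Hsp90ab1 and Hspa12a at -0.73 and Hspe1 and Hspb2 at -0.67. The pairs named were picked from the highest and lowest values. Over all 630 pairs of 36 members the median r was 0.04.

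The head-to-head genes Hspd1 and Hspe1, with a shared promoter, correlated at r = 0.38. The 6 pairs of the tested members with a heat shock element of 3 units had r from 0.18 to 0.65 (median 0.37), and the 28 pairs of the heat-inducible subset a median r of 0.19. The 3 pairs with an ER stress response element had r from 0.09 to 0.48.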
